A study of Mus musculus with 8 samples.

Results

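The genes described here are 9 transcription factor genes of the trophectoderm, the outer epithelium of the early embryo that forms the fetal part of the placenta: Cdx2, Gata3, Gata2, Tead4, Eomes, Tfap2c, Tfap2a, Klf5 and Elf3. They were chosen by symbol, with earlier results of these data known, and each had exactly 1 row among the 19058 Ensembl genes of the deposited table. Polyadenylated RNA had been sequenced from whole mouse late morulae at 78 h after fertilization. Zygotes had received small interfering RNA (siRNA) against Rbbp4 (Rbbp4 knockdown), against Rbbp7 (Rbbp7 knockdown), against both (double knockdown), or a non-specific siRNA (control), with 2 libraries in each of the 4 groups. All groups, the control included, were injected as zygotes, and the sources used here do not name the strain or the number of embryos per library. Since no label says whether replicate libraries were made from different embryos, a p-value here reflects the spread of these libraries alone, which may be technical.

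By the late morula stage, outer cells of the mouse embryo are polarized. In these cells the Hippo kinases are held inactive, the coactivators YAP and TAZ enter the nucleus and join the DNA-binding protein TEAD4, and Cdx2 and Gata3 are switched on; inner cells keep the pathway active and retain Pou5f1 and Nanog. AP-2 factors, Klf5 and later Eomes act alongside CDX2 in the outer lineage. RBBP4 and RBBP7 are closely related histone-binding proteins found in chromatin complexes such as NuRD, SIN3 and polycomb repressive complex 2.

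The 8 libraries had total normalized abundances of 11334107 to 12011829, and read depth is unknown. Control replicate 1 stood apart, with 3937 genes at 0 where the remaining 7 libraries had 2644 to 3237. It also had the highest mitochondrial share, 6.21% of abundance against 4.26% to 5.53%. Rbbp4 was at 343 to 433 in the libraries that received its siRNA and at 4370 to 5300 in those that did not, and Rbbp7 at 266 to 327 and 6295 to 8399 in the same way, so each siRNA's target was low where the labels name it. All 7 listed preimplantation markers, Pou5f1, Nanog, Zfp42, Tfap2c, Dppa5a, Utf1 and Tdgf1, were above 0 in every library. Sperm and blood markers summed to at most 4.76 and 24.4 per library. The 6 cumulus cell markers with a row summed to 131 and 105 after double knockdown and to 27.0 to 58.1 in the other 6 libraries. Foxl2 alone gave 101 and 74.4 of those double knockdown sums, while Cd44, Amh and Inha were between 0 and 6.29 in every library. Inhba was at 9.50 and 4.97 after double knockdown and at 1.57 to 4.18 in the other 6 libraries. Kitl was at 15.5 and 15.0 after double knockdown, against 1.10 and 6.94 in the control and up to 15.1 after Rbbp4 knockdown. Since the embryos were sequenced whole, fewer outer cells and less RNA per outer cell cannot be told apart.

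**Figure D1:**
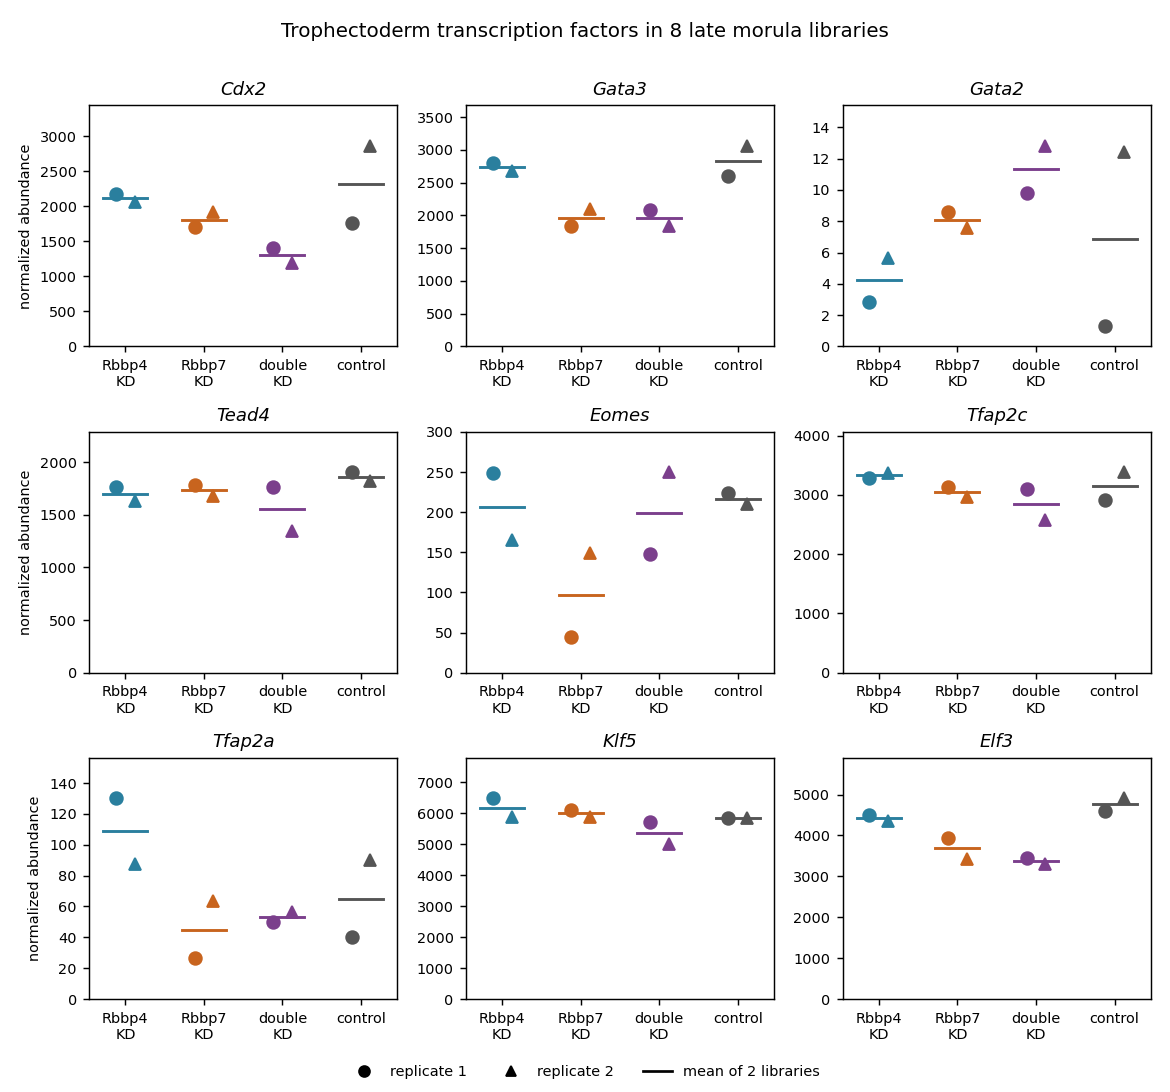
Normalized abundance (y axis, linear, from 0) of the 9 factors in the Rbbp4 knockdown, Rbbp7 knockdown, double knockdown and control libraries (x axis); circles are replicate 1, triangles replicate 2 and bars the mean of 2 libraries. Gata3 and Elf3 sit lower in the 4 libraries with Rbbp7 siRNA than in the 4 without it, and Cdx2 is lowest in the double knockdown, at 1195 and 1409.

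Across the 8 libraries the factors formed an abundant and a scarce set. Compared per kilobase of exonic length, Elf3 had the highest control level, at 2146 ± 96.4 (SD, n = 2 for every group mean given), and Klf5 followed at 1123 ± 0.740. Cdx2 at 1026 ± 344, Tfap2c at 856 ± 91.0 and Gata3 at 712 ± 83.0 came next. The control libraries of Cdx2 spanned 783 to 1269 and so took in those of its neighbours Klf5 and Tfap2c, and Cdx2 differed from neither beyond that spread. Klf5, at 1122 and 1123, lay above Tfap2c. Gata3, at 653 and 770 in the control libraries, lay below Tfap2c, at 792 and 921. Tead4 had 517 ± 17.8, below Gata3 in both libraries. A wide gap separated these 6 from Eomes (52.2 ± 2.23), Tfap2a (13.3 ± 7.13) and Gata2 (1.28 ± 1.46). The 6 abundant factors had more abundance per kilobase than 92.9% to 98.3% of the genes in the table, Eomes more than 61.9%, Tfap2a more than 48.1% and Gata2 more than 23.3%.

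**Figure D2:**
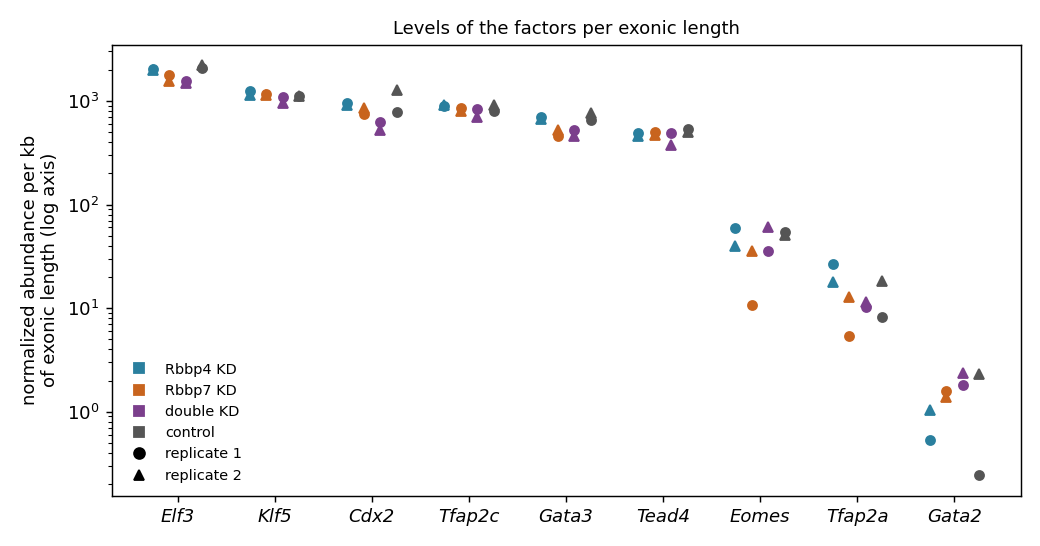
Normalized abundance per kilobase of exonic length (y axis, log scale) of each factor (x axis, ordered by control mean), with 1 point per library, coloured by group and shaped by replicate. Elf3 leads at 2146 in the control mean, and Eomes, Tfap2a and Gata2 lie at 52.2, 13.3 and 1.28.

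Stretches of promoter are shown for Cdx2, Gata3 and Elf3, the 3 factors whose limma p before adjustment was below 0.05 in the double knockdown (17.3% of all tested genes). None of the 3 was called after adjustment, and the choice was made after their values were seen. Each is the strand of the gene, 5′ to 3′, from 250 to 101 bases before the RefSeq start in GRCm38.p6, on the minus strand of chr5:147307350-147307499 for Cdx2, chr2:9878701-9878850 for Gata3 and chr1:135258573-135258722 for Elf3. The Gata3 window lies inside the annotated span of that gene given below (9857078 to 9890034), since the RefSeq start used lies within that span. Capitals mark matches on either strand to any of 4 motifs. The TEAD family motif searched was GGAATG. The AP-2 family motif searched was GCCNNNGGC. For Krüppel-like factors the letters were CACCC, and for the GATA family they were AGATAA.
Cdx2: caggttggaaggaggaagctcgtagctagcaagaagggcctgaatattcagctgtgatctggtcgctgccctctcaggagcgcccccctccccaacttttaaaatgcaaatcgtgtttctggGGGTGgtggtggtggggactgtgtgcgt
Gata3: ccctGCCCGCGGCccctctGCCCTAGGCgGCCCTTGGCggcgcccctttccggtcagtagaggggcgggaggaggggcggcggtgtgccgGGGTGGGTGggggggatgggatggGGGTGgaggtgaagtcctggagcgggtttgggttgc
Elf3: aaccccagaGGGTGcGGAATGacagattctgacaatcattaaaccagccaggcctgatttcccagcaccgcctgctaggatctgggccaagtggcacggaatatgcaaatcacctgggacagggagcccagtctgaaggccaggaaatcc

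Over these 150 bases the 3 promoters carried different letters. The Gata3 window, which overlaps an annotated exon of the antisense gene Gm13256, held 3 matches to the AP-2 motif, which reads the same on both strands, and 3 to the Krüppel-like motif, of which 2 share a base. Elf3 held 1 TEAD match and 1 Krüppel-like match, and Cdx2 held 1 Krüppel-like match. Of 32851 promoter windows of the same length and position, 8.10% held the TEAD motif, 7.45% the AP-2 motif, 35.2% the Krüppel-like motif and 6.54% the GATA motif. These matches are letters in a window and not measured binding sites. The RefSeq table held promoters for 6 of the 9 genes, and Klf5, Tead4 and Tfap2c were not among them.

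None of the 8 factors that passed the filter on low values (a mean of at least 10) was called by limma at an adjusted p below 0.05 in any of 6 comparisons. Of all tested genes, 0.0239% were called for Rbbp4 knockdown against the control, 0.0239% for Rbbp7 knockdown and 1.15% for double knockdown. The same share was 0.47% for the average effect of Rbbp4 siRNA, 0.0955% for the average effect of Rbbp7 siRNA and 0.00796% for the interaction. An average effect sets the 4 libraries with an siRNA against the 4 without it, and the interaction is the double knockdown's log2 change minus the sum of the single changes. Before adjustment, p was below 0.05 for 3 of the 8 in the Rbbp7 knockdown (Gata3, Elf3 and Eomes; 9.55% of all tested genes), for 3 in the double knockdown (Cdx2, Gata3 and Elf3; 17.3%) and for the same 3 in the Rbbp7 siRNA average (12.7%). It was so for 0 of the 8 in the Rbbp4 knockdown (5.86%), the Rbbp4 siRNA average (14.2%) and the interaction (6.49%). The comparisons against the control share its libraries, so values below are given side by side for each group.

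Tead4, the DNA-binding partner of YAP that stands at the top of the outer-cell program, differed little between groups (ENSMUSG00000030353, chromosome 6, 128224288 to 128300823, GRCm38). Its abundance was 1764 and 1634 after Rbbp4 knockdown, 1785 and 1677 after Rbbp7 knockdown, 1766 and 1346 after double knockdown, against 1907 and 1816 in the control. Both control libraries stood above the other 6, of which double knockdown replicate 2 was lowest. The log2 changes were −0.13 ± 0.14 (SE of the limma fit, as for each log2 change below), −0.11 ± 0.14 and −0.27 ± 0.14 in the order of those groups, with adjusted p = 0.942, 0.855 and 0.374. For the double knockdown the 95% interval ran from −0.60 to 0.054. Each 95% interval here and below is for a single gene and is not adjusted over genes.

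Cdx2, the caudal-type homeobox factor that maintains the trophectoderm and represses pluripotency genes there, was lowest in the double knockdown (ENSMUSG00000029646, chromosome 5, 147300805 to 147307270). Its abundance was 2182 and 2071 after Rbbp4 knockdown, 1700 and 1914 after Rbbp7 knockdown, 1409 and 1195 after double knockdown, against 1771 and 2869 in the control. The double knockdown libraries lay below all other 6, while those of the single knockdowns fell within or near the wide control range. In the double knockdown the log2 change was −0.80 ± 0.21, 57.6% of the control level on that scale, with adjusted p = 0.101 and a 95% interval of −1.26 to −0.33. Over all alternatives its adjusted p ran from 0.0383 to 0.296. The lowest came without control replicate 1, where the change was −1.14, and the highest from a fit on the compared groups only. Without control replicate 2 the change was −0.45 with adjusted p = 0.193. The Rbbp7 knockdown had −0.32 ± 0.21 (adjusted p = 0.659), which became 0.027 without control replicate 2, and the Rbbp4 knockdown had −0.085 ± 0.21 (adjusted p = 0.982), which became 0.26 without it. Averaged over backgrounds, Rbbp7 siRNA gave −0.52 ± 0.15 (adjusted p = 0.207) and Rbbp4 siRNA −0.28 ± 0.15 (adjusted p = 0.434). The interaction was −0.39 ± 0.29 (adjusted p = 0.846), so a difference between the double change and the sum of the single changes was not shown.

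Gata3, a zinc finger factor that acts in parallel with CDX2 downstream of TEAD4, split by Rbbp7 siRNA (ENSMUSG00000015619, chromosome 2, 9857078 to 9890034). Its abundance was 1835 and 2090 after Rbbp7 knockdown and 2079 and 1835 after double knockdown, against 2800 and 2678 after Rbbp4 knockdown and 2598 and 3065 in the control. The 4 libraries with Rbbp7 siRNA did not overlap the 4 without it, and their mean abundance was 1960 ± 144 against 2785 ± 204 (SD, n = 4 each). The average effect was −0.51 ± 0.093, 70.4% of the level without that siRNA, with a 95% interval of −0.72 to −0.30 and adjusted p = 0.0793. Leaving out any 1 library kept the average between −0.57 and −0.45, and adjusted p ran from 0.0631 to 0.347 over all alternatives tried. Against the control alone, the Rbbp7 and double knockdowns had nearly equal changes of −0.53 ± 0.13 each (adjusted p = 0.252 and 0.0943), and the Rbbp4 knockdown had −0.043 ± 0.13 (adjusted p = 0.988). The average effect of Rbbp4 siRNA was −0.024 ± 0.093 (adjusted p = 0.941), with a 95% interval of −0.23 to 0.19, and its sign turned with quantile normalization (0.016).

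Elf3, an epithelial factor of the ETS family, showed the same division (ENSMUSG00000003051, chromosome 1, 135253575 to 135258568). Its abundance was 3947 and 3431 after Rbbp7 knockdown and 3450 and 3308 after double knockdown, against 4497 and 4357 after Rbbp4 knockdown and 4607 and 4909 in the control. Again the libraries with and without Rbbp7 siRNA did not overlap, at 3534 ± 282 against 4592 ± 234 (SD, n = 4 each). The average effect was −0.38 ± 0.079, 76.9% of the level without that siRNA, with a 95% interval of −0.56 to −0.20 and adjusted p = 0.115. The Rbbp7 knockdown had −0.37 ± 0.11 (adjusted p = 0.318) and the double knockdown −0.49 ± 0.11 (adjusted p = 0.0760), against −0.10 ± 0.11 (adjusted p = 0.939) in the Rbbp4 knockdown. Of all 12565 tested genes, 3.43% were lower without overlap in this arrangement of 4 against 4 libraries, and Gata3 and Elf3 were the 2 factors of 8 among them.

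Tfap2c, which encodes AP-2 gamma, an activator of Cdx2 in the mouse embryo, was steady across groups (ENSMUSG00000028640, chromosome 2, 172549593 to 172558622). Its abundance was 3287 and 3374 after Rbbp4 knockdown, 3137 and 2959 after Rbbp7 knockdown, 3107 and 2584 after double knockdown, against 2913 and 3387 in the control. Every knockdown library but double knockdown replicate 2 lay within the control range. The largest of its log2 changes against the control was −0.15 ± 0.13 in the double knockdown (adjusted p = 0.593), with a 95% interval of −0.44 to 0.14.

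Tfap2a, which encodes the related AP-2 alpha, was scarce and variable (ENSMUSG00000021359, chromosome 13, 40715302 to 40738376). Its abundance was 130 and 87.5 after Rbbp4 knockdown, 26.5 and 63.3 after Rbbp7 knockdown, 50.2 and 56.3 after double knockdown, against 40.4 and 89.8 in the control. Every knockdown group had at least 1 library inside the span of the control, and the highest and lowest libraries were Rbbp4 knockdown replicate 1 and Rbbp7 knockdown replicate 1. The Rbbp4 knockdown had 0.81 ± 0.51 (adjusted p = 0.884), the Rbbp7 knockdown −0.54 ± 0.51 (adjusted p = 0.773) and the double knockdown −0.18 ± 0.51 (adjusted p = 0.900). Without Rbbp7 knockdown replicate 1 the Rbbp7 knockdown's change was 0.069, and without control replicate 2 it was 0.024. The average effect of Rbbp7 siRNA was −0.77 ± 0.36 (adjusted p = 0.427) and that of Rbbp4 siRNA 0.59 ± 0.36 (adjusted p = 0.508).

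Eomes, a T-box factor known for its role in trophoblast stem cells, had its lowest mean in the Rbbp7 knockdown, where the libraries lay far apart (ENSMUSG00000032446, chromosome 9, 118478212 to 118486132). Its abundance was 249 and 165 after Rbbp4 knockdown, 44.7 and 149 after Rbbp7 knockdown, 148 and 250 after double knockdown, against 223 and 210 in the control. Rbbp7 knockdown replicate 1 was far below every other library, and the double knockdown, which received the same siRNA, reached the highest value of the 8. The Rbbp7 knockdown had −1.39 ± 0.50 (adjusted p = 0.422), the Rbbp4 knockdown −0.099 ± 0.50 (adjusted p = 0.991) and the double knockdown −0.17 ± 0.50 (adjusted p = 0.903). The interaction was 1.32 ± 0.71 (adjusted p = 0.797). Without Rbbp7 knockdown replicate 1 that group's change was −0.53, and without Rbbp7 knockdown replicate 2 it was −2.25.

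Klf5, a Krüppel-like factor needed for the trophectoderm and also active in the inner cells, varied least (ENSMUSG00000005148, chromosome 14, 99298691 to 99315036). Its abundance was 6487 and 5875 after Rbbp4 knockdown, 6114 and 5883 after Rbbp7 knockdown, 5710 and 4995 after double knockdown, against 5837 and 5843 in the control. The highest library exceeded the lowest 1.30-fold. Its log2 changes were 0.080 ± 0.11, 0.038 ± 0.11 and −0.13 ± 0.11 in the order of those groups (adjusted p = 0.962, 0.941 and 0.592).

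Gata2, a zinc finger factor of trophoblast giant cells, was close to the lower end of detection and was not tested (ENSMUSG00000015053, chromosome 6, 88193891 to 88207032). Its abundance was 2.86 and 5.67 after Rbbp4 knockdown, 8.56 and 7.56 after Rbbp7 knockdown, 9.83 and 12.8 after double knockdown, against 1.32 and 12.5 in the control. The control libraries spanned nearly the whole range of all 8, so these values did not separate the groups. With no filter on low values, the double knockdown had 1.13 ± 0.93 (adjusted p = 0.620).

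As a group, the 8 tested factors had 0 positive and 8 negative log2 changes in the double knockdown, with a median of −0.22, and 1 positive and 7 negative in the Rbbp7 knockdown, with a median of −0.35. In the Rbbp4 knockdown 3 were positive and 5 negative, with a median of −0.064. The medians over all tested genes were −0.00056, 0.0095 and 0.0049 in the same order. Libraries did not overlap the control, in the lower direction, for 5 of 8 factors in the double knockdown (22.2% of all tested genes), 4 of 8 in the Rbbp7 knockdown (19.7%) and 2 of 8 in the Rbbp4 knockdown (17.4%). In the higher direction they did not overlap for 0 of 8 in the double knockdown (21.9%), and for 1 of 8, Klf5, in the Rbbp7 knockdown (19.9%) and in the Rbbp4 knockdown (18%). For the average effect of Rbbp7 siRNA all 8 changes were negative (49.5% of all tested genes), with a median of −0.44. For Rbbp4 siRNA 6 were negative (49.8%), with a median of −0.034. Between the 4 libraries with Rbbp4 siRNA and the 4 without it, 0 of 8 factors were without overlap in the lower (3.58%) or higher direction (3.5%), and for Rbbp7 siRNA 0 of 8 were so in the higher direction (2.75%).

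**Figure D3:**
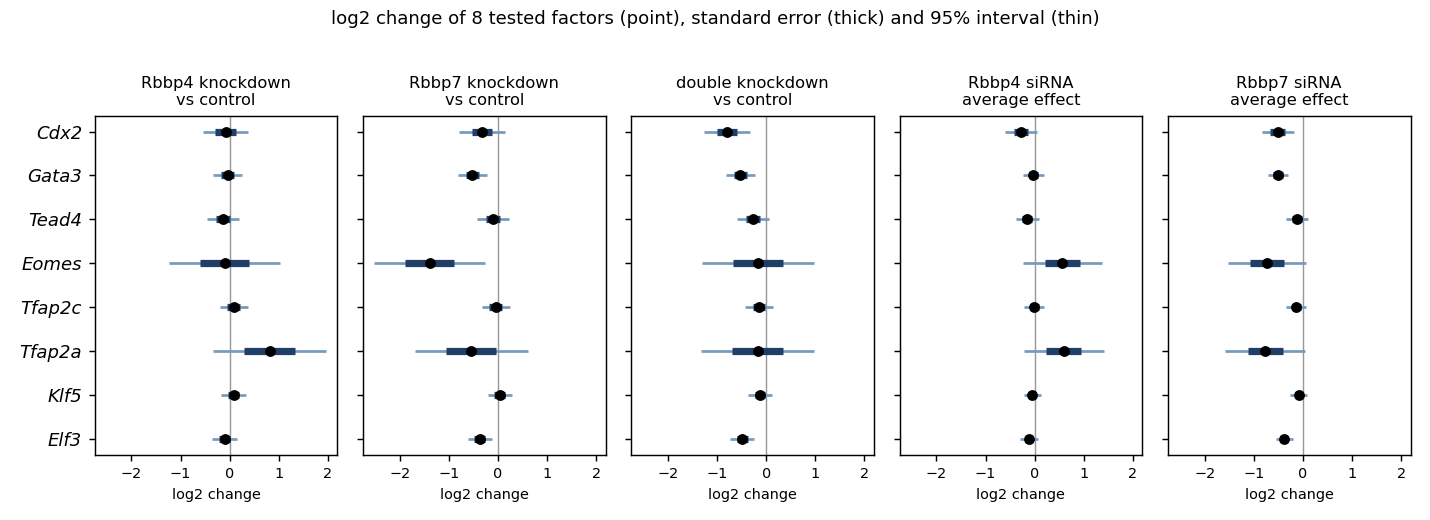
log2 change (x axis) of the 8 tested factors (y axis) in each knockdown against the control and for the average effect of each siRNA; points are limma estimates, thick lines the standard error and thin lines the 95% interval. Gata3 and Elf3 have narrow intervals below 0 for Rbbp7 siRNA (−0.72 to −0.30 and −0.56 to −0.20), and Eomes and Tfap2a have wide ones. The intervals are for single genes and not adjusted over genes, and no factor was called.

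Some factors share exonic bases with other genes, and the sources used here do not say whether counting used strand. Gata3 shares 77 with 9230102O04Rik on its own strand and 155 with the antisense gene Gm13256. Elf3 shares 162 with antisense Gm26642, Eomes 118 with Gm33460, and Tfap2a 265, 380 and 73 with Gm47061, Gm26688 and Gm47067. Without strand, reads of a factor and its antisense partner cannot be told apart.

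Profiles over the 8 libraries were compared by the mean absolute difference of log2 values after centring each gene on its own mean. The factor nearest to Gata3 was Elf3, at 0.105, and 0.207% of the 12564 other tested genes were closer to Gata3 than Elf3 was. In the other direction, 1.07% were closer to Elf3 than Gata3 was. Another pair of factors, Klf5 and Tfap2c, lay at 0.0731, with 1.19% of genes closer to Klf5 and 0.653% closer to Tfap2c. The genes closest to Gata3 were Larp4b (0.0759) and Cnot6 (0.0785), those closest to Elf3 were Fgfr1op2 (0.0474) and Pola2 (0.0588), and those closest to Cdx2 were Nynrin (0.0855) and Tanc1 (0.105). The steady factors Tead4 and Klf5 had nearer neighbours, Wasl (0.0310) and Sptan1 (0.0329) for Tead4 and Nat10 (0.0342) and Ppp1r15b (0.0351) for Klf5, as any pair of flat profiles lies close by this measure. Eomes was nearest to Vstm5 (0.180) and Klhl36 (0.183), and Tfap2a to Eif2ak2 (0.204) and BC053393 (0.208).

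Beside the factors, the list of 28 outer-cell effectors, which covers keratins, pump subunits, junction proteins and other trophectoderm genes, did include called genes. In the Rbbp7 siRNA average 5 of 28 fell and 0 rose (all tested genes, 0.0796% lower), with a list median of −0.33 and 23 negative changes. Enpep, a membrane aminopeptidase, was at 681 and 680 after Rbbp7 knockdown and 1029 and 1317 after double knockdown, against 2508 and 2311 after Rbbp4 knockdown and 2056 and 2135 in the control (−1.33 ± 0.099, adjusted p = 0.00145). Id2, whose protein blocks DNA binding by its helix-loop-helix partners, was at 145 and 132 after Rbbp7 knockdown and 108 and 93.8 after double knockdown, against 248 and 270 after Rbbp4 knockdown and 330 and 296 in the control (−1.26 ± 0.15, adjusted p = 0.0183). Neither gene overlapped between the libraries with and without that siRNA, as for 10 of 28 effectors in the lower direction (3.43% of all tested genes). Both genes were named because they were called in this comparison.

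Fabp3, a fatty acid binding protein (−1.02 ± 0.10, adjusted p = 0.0101), Atp1b1, a sodium pump subunit used in blastocoel formation (−0.88 ± 0.10, adjusted p = 0.0183), and Krt18, a keratin of simple epithelia (−1.09 ± 0.13, adjusted p = 0.0246), also fell. Enpep kept its call without any 1 library (adjusted p up to 0.0378), and the count of 5 dropped to 1 without control replicate 1 or Rbbp4 knockdown replicate 2 and to 2 without Rbbp4 knockdown replicate 1 or either Rbbp7 knockdown library. Against the control alone, 2 effectors were called lower in the Rbbp7 knockdown (Enpep and Fabp3, against 0.0239% of all tested genes). In the double knockdown 6 were called lower and 1 higher (0.501% and 0.645% of all tested genes), and in the Rbbp4 knockdown 0 were called. Before adjustment, limma p was below 0.05 for 14 of 28 in the Rbbp7 knockdown (9.55% of all tested genes) and 14 in the double knockdown (17.3%). It was so for 3 in the Rbbp4 knockdown (5.86%), namely Plet1 (−1.03 ± 0.20, adjusted p = 0.446), Krt19 and Atp1b1 (−0.36 ± 0.14, adjusted p = 0.836). These counts take both directions, and the 14 in the double knockdown include genes that rose. Over the list, 6 changes were positive and 22 negative in the double knockdown, with a median of −0.21. In the Rbbp7 knockdown 4 were positive and 24 negative, with a median of −0.45. The 6 called lower in the double knockdown were Plet1, Atp1b1, Id2, Fabp3, Enpep and Krt18. The gene called higher there was the keratin Krt19 (3.43 ± 0.57, adjusted p = 0.0318). Krt19 was at 54.6 and 96.6 after Rbbp4 knockdown, 25.8 and 46.5 after Rbbp7 knockdown, 141 and 205 after double knockdown, against 8.27 and 26.1 in the control. Its changes were 2.22 ± 0.57 in the Rbbp4 knockdown (adjusted p = 0.663) and 1.17 ± 0.57 in the Rbbp7 knockdown (adjusted p = 0.563). The interaction of Krt19 was 0.044 ± 0.81 (adjusted p = 0.996). Without 1 library the count of 6 was 2 to 4 (2 without control replicate 1 or double knockdown replicate 2), and Krt19 missed the threshold without control replicate 1 (adjusted p = 0.0946), either double knockdown library (0.108 and 0.115), either Rbbp4 knockdown library (0.0555 and 0.0613) or Rbbp7 knockdown replicate 2 (0.0511). The count of 2 in the Rbbp7 knockdown was 0 when control replicate 1 or Rbbp7 knockdown replicate 2 was left out, and without either Rbbp4 knockdown library it was 1. The cumulus marker sum was higher in the double knockdown, as given above, and its part in those results was not tested. In the Rbbp4 siRNA average 1 effector fell and 0 rose (all tested genes, 0.191% lower and 0.279% higher), Plet1 (−1.05 ± 0.14, adjusted p = 0.0190), a surface marker of trophoblast progenitors. That call was lost without either Rbbp4 knockdown library (adjusted p = 0.0896 and 0.101), Rbbp7 knockdown replicate 2 (0.0703), double knockdown replicate 1 (0.0554) or control replicate 1 (0.0712). The list was written with earlier results of these data known, so its count and direction are a description.

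**Figure D4:**
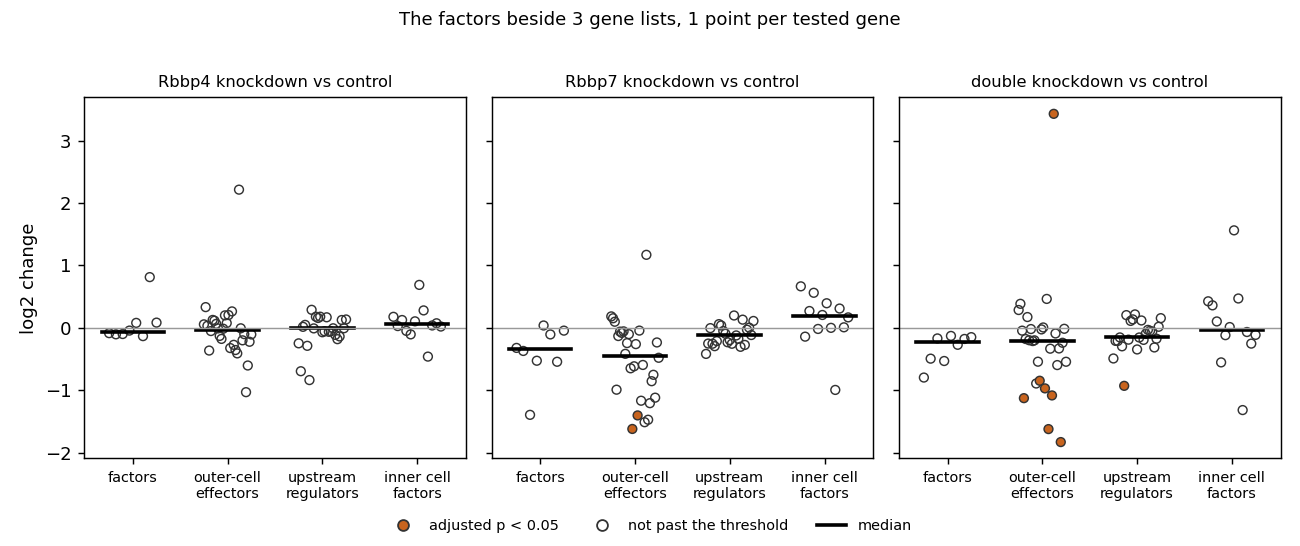
log2 change (y axis) of each tested gene in 4 lists (x axis: the 8 factors, 28 outer-cell effectors, 23 upstream regulators and 12 inner cell factors), 1 panel per knockdown against the control; filled points have an adjusted p below 0.05 and bars are medians. No factor is filled in any panel, and filled effectors appear in the Rbbp7 knockdown (2 lower) and the double knockdown (6 lower and 1 higher).

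Of 23 genes upstream of the factors in the Hippo, Notch and polarity pathways, 1 fell in the double knockdown and 0 were called in either single knockdown. In the single knockdowns p before adjustment was below 0.05 for 1 gene each (Mob1a with Rbbp4 siRNA and Amot with Rbbp7 siRNA). Of all tested genes, 0.501% were called lower in the double knockdown, and p before adjustment was below 0.05 for 5.86% after Rbbp4 knockdown and for 9.55% after Rbbp7 knockdown, so 1 of 23 is no more than the share of all genes in either single knockdown. The gene that fell was Mob1a, the scaffold that activates LATS kinases, at 959 and 974 after Rbbp4 knockdown, 1528 and 1456 after Rbbp7 knockdown, 908 and 906 after double knockdown, against 1901 and 1570 in the control. Mob1a was lower in all 4 libraries with Rbbp4 siRNA (average −0.78 ± 0.091, adjusted p = 0.0162), a call lost without either Rbbp4 knockdown library (adjusted p = 0.0886 and 0.0768) or either Rbbp7 knockdown library (0.0599 and 0.0656). In the double knockdown Mob1a had −0.93 ± 0.13 (adjusted p = 0.0178), and that call was lost without control replicate 1 (0.0683), either double knockdown library (0.0739 and 0.0642) or Rbbp4 knockdown replicate 2 (0.0526), and narrowly missed the threshold without Rbbp4 knockdown replicate 1. Amot, which holds YAP out of the nucleus in inner cells, had −0.42 ± 0.12 in the Rbbp7 knockdown (adjusted p = 0.292) and −0.49 ± 0.12 in the double knockdown (adjusted p = 0.0904).

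Of 12 inner cell factors, 0 were called in any knockdown against the control, with p before adjustment below 0.05 for 3 in the Rbbp7 knockdown (9.55% of all tested genes), 4 in the double knockdown (17.3%) and 0 in the Rbbp4 knockdown (5.86%). Nanog, a homeobox factor of the inner cells, was at 6545 and 6051 after Rbbp4 knockdown, 9093 and 10156 after Rbbp7 knockdown, 4192 and 4692 after double knockdown, against 6698 and 6322 in the control. It was the 1 gene of the list called for an average effect, at −0.58 ± 0.080 for Rbbp4 siRNA (adjusted p = 0.0232), a call lost without either Rbbp4 knockdown library (0.110 and 0.134), either Rbbp7 knockdown library (0.0621 and 0.119), double knockdown replicate 1 (0.0631) or control replicate 1 (0.0672). That average joins unlike values: Nanog had −0.048 ± 0.11 in the Rbbp4 knockdown (adjusted p = 0.981), 0.56 ± 0.11 in the Rbbp7 knockdown (adjusted p = 0.168) and −0.55 ± 0.11 in the double knockdown (adjusted p = 0.0572). Its interaction of −1.07 ± 0.16 had the lowest p of the list, 8.72e-05 before adjustment by limma, and was not called (adjusted p = 0.369). The list's median was 0.19 in the Rbbp7 knockdown, −0.027 in the double knockdown and 0.056 in the Rbbp4 knockdown, against −0.35, −0.22 and −0.064 for the trophectoderm factors in the same comparisons.

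Relatives of the factors and later trophoblast genes gave 0 genes called by limma in any of the 6 comparisons, over 14 and 7 tested members. Against the control, limma p before adjustment was below 0.05 for 2 of the 14 relatives after Rbbp7 knockdown (Elf4 and Klf6). The share of all tested genes was 9.55%. It was so for 2 in the double knockdown (Gata1 and Klf6, against 17.3%) and 0 in the Rbbp4 knockdown (5.86%). The share among relatives was thus above that of all genes in the Rbbp7 knockdown and below it in the double knockdown. Among the 7 later genes, limma p before adjustment was below 0.05 for 1 in the Rbbp7 knockdown (Hand1). It was so for 2 in the double knockdown (Hand1 and Gcm1) and 0 in the Rbbp4 knockdown, against the same shares of all genes. Gata1, better known from blood, had 0.84 ± 0.21 in the double knockdown (adjusted p = 0.0977). Picked after their values were seen, Cdx1 and Cdx4, the paralogs of Cdx2, were at most 7.38 and 3.12 in any library, and Tead1 was at 1037 to 1720. Hand1, a trophoblast giant cell factor, had 0.42 ± 0.18 in the Rbbp7 knockdown (adjusted p = 0.511) and 0.47 ± 0.18 in the double knockdown (adjusted p = 0.224). Hand1 was at 1005 and 837 after Rbbp7 knockdown and at 1114 and 812 after double knockdown. The Rbbp4 knockdown had 528 and 570 and the control 722 and 651. Libraries with and without Rbbp7 siRNA did not overlap, as for 2.75% of all tested genes in the higher direction. Averaged over backgrounds, Rbbp7 siRNA gave Hand1 0.61 ± 0.13 (adjusted p = 0.118). For that average 6 of the 7 later genes were positive and 1 negative, with a median of 0.29. Elf5, a factor of later trophoblast stem cells, was at 3.32 to 21.2 in the 8 libraries. Of the 6 primitive endoderm markers 4 were tested and 0 called, with p before adjustment below 0.05 for 1 in the Rbbp7 knockdown and the double knockdown and 0 in the Rbbp4 knockdown. That gene was Sox17, an endoderm factor, at 44.8 and 20.3 after Rbbp4 knockdown, 17.8 and 72.8 after Rbbp7 knockdown, 84.0 and 35.8 after double knockdown, against 10.05 and 10.26 in the control. Each knockdown's libraries lay above both control libraries, as for 18% (Rbbp4), 19.9% (Rbbp7) and 21.9% (double knockdown) of all tested genes. Sox17 had 1.74 ± 0.73 in the Rbbp7 knockdown (adjusted p = 0.504) and 2.33 ± 0.73 in the double knockdown (adjusted p = 0.153). Its control values were near the filter limit of 10. The other tested markers Gata6, Gata4 and Pdgfra had −0.040, −0.35 and −0.20 in the Rbbp7 knockdown. In the double knockdown these 3 had −0.055, 0.82 and −0.037.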

How the data were processed

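The deposited table holds 1 signal value for each Ensembl gene and library, which the authors normalized with DESeq2. The submitters' processing notes name Trimmomatic, HISAT2, featureCounts and DESeq2 and the build GRCm38, and the sources used here give no versions or strand setting. Libraries were made from polyadenylated RNA, per the labels. Whole reads could not be recovered, since 26.4% to 60.1% of values under 40 lay within 0.05 of a whole multiple of a library's commonest step, so read depth is unknown and no count model was used. The column of the double knockdown differs by 1 letter from its titles.

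Genes with a mean of at least 10 were kept (12565; 6493 were left out). limma 3.58.1 in R 4.3.3 was fitted to log2(value + 1) of all 8 libraries with 1 mean per group and a trended variance prior, which has 4 residual degrees of freedom, and was checked on simulated data. Fold changes are on the log2(value + 1) scale, which understates those of low genes. P-values were Benjamini-Hochberg adjusted over all 12565 genes, with a threshold of 0.05. Exonic lengths and positions come from GENCODE annotation of GRCm38 and promoters from RefSeq. The factors and lists were chosen with earlier results of these data known. Named list genes are those called in any comparison or among the 3 smallest p-values of a list against the control, and 2 genes are named as nearest to each tested factor, except Tfap2c, for which this is not reported here. Alternatives were other pseudocounts (0.5 and 5), filters (none and 50), scalings (trimmed mean of M values, and quantile), weights per group, no trend, the compared groups only, a replicate block and leaving out each library.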

Additional observations from a re-analysis of the deposited data

Results flagged for a closer look

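Klf5 was flagged because its values with Rbbp4 siRNA were lower in the presence of Rbbp7 siRNA and higher in its absence. Both double knockdown libraries (5710 and 4995) lay below both Rbbp7 knockdown libraries (6114 and 5883), while both Rbbp4 knockdown libraries (6487 and 5875) lay above both control libraries (5837 and 5843). The latter separation was narrow, at 5875 against 5843, and 18% of all tested genes lay higher without overlap in that comparison. The share of genes with both patterns was not counted. The limma test of the difference itself, the interaction, gave −0.25 ± 0.16 on the log2 scale, with adjusted p = 0.810, so a difference was not shown.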

How the results depend on the processing

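The number of factors called was 0 in every comparison under every alternative with 1 exception: without control replicate 1 the double knockdown had 1, Cdx2 (−1.14, adjusted p = 0.0383), so that count ranged from 0 to 1 over the 8 fits that left out a library; with fewer libraries the lone control is assumed to vary like the other groups. Of 840 alternative log2 changes, 805 kept their direction and side of the threshold, 1 passed it and 34 turned sign, 30 of them without 1 library; the cause was not tested. Quantile normalization turned Gata3 (0.016), Tfap2c (0.040) and Klf5 (0.0050) in the Rbbp4 siRNA average and Elf3 in the interaction (0.046). Without 1 library, changes in the Rbbp4 knockdown ranged from −0.43 to 0.26 for Cdx2, −0.16 to 0.076 for Gata3, −0.39 to 0.20 for Eomes and −0.024 to 0.19 for Tfap2c. In the Rbbp7 knockdown they ranged from −0.67 to 0.027 for Cdx2, −0.15 to 0.065 for Tfap2c and −1.16 to 0.069 for Tfap2a, and in the double knockdown from −0.54 to 0.21 for Eomes and −0.74 to 0.39 for Tfap2a. In the Rbbp4 siRNA average they ranged from −0.083 to 0.036 for Gata3, −0.077 to 0.056 for Tfap2c and −0.092 to 0.0047 for Klf5. In the interaction they ranged from −0.080 to 0.16 for Gata3, −0.23 to 0.16 for Tead4, −1.06 to 0.16 for Tfap2a and −0.12 to 0.081 for Elf3. Same-numbered replicates did not deviate together (correlations of −0.022 to 0.051), and with a replicate block 0 factors were called, with adjusted p = 0.114 for Cdx2 in the double knockdown. The effector counts, tried after the data were seen, fell without a variance trend to 0 in the double knockdown, the Rbbp7 knockdown and the Rbbp4 siRNA average and to 2 in the Rbbp7 siRNA average, on the compared groups only to 0 in the double knockdown and from 2 to 1 in the Rbbp7 knockdown (Fabp3, adjusted p = 0.152), and with weights to 3 in the double knockdown.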
